A study of Mus musculus with 2 samples.

Results

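The cluster described here consists of 5 microRNA (miRNA) genes, Mir532, Mir188, Mir362, Mir501 and Mir500, which lie in 1 intron of Clcn5 on the X chromosome of the mouse. They were taken by gene name, as the Clcn5 intron genes among the 2202 miRNA genes of the annotation. The libraries came from the adrenal gland of adult male mice aged 8 to 10 months, of the strain named 5xFAD/CAST, which pairs the name of a transgenic mouse model of Alzheimer's disease with that of a wild-derived strain. The 2 libraries are biological replicates 1 and 2 of 1 group and held small RNA below 30 nucleotides. The labels give them separate sample records but 1 donor record, and they do not state whether the animals carried the transgenes. The study has no second group, so the values describe levels in this tissue, and the spread between the replicates may be partly technical.

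A miRNA gene is transcribed as part of a longer RNA, from which the enzymes Drosha and Dicer cut a hairpin and then a short duplex. Either arm of the duplex, called the 5p or the 3p form, can be loaded into an Argonaute protein, where the seed near its 5′ end pairs with target messenger RNAs. Genes in 1 intron are often transcribed together with their host, and each hairpin is then processed on its own. Clcn5 encodes an endosomal chloride and proton exchanger, known above all from the proximal tubule of the kidney and from Dent disease. In human cells the related miRNAs have been studied mostly in tumours. In mice, miR-188 is known from the choice of bone marrow stromal cells between bone and fat, and miR-501 from muscle progenitors.

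All coordinates are those of GRCm38 (mm10), on the minus strand of chromosome X. Clcn5 extends from 7153810 to 7319358. In 3 of its 5 annotated transcripts the 5 hairpins lie in a single intron of 103648 bases, from 7213011 to 7316658, which is intron 3 of Clcn5-202 and Clcn5-204 and intron 2 of Clcn5-203. The other 2 transcripts start downstream of the cluster and do not contain it. No other miRNA gene is annotated inside Clcn5, and the only other gene there is Gm26401, a small nucleolar RNA gene on the opposite strand. The hairpins span 10815 bases. In the direction of transcription Mir532 comes first, Mir188 follows after 345 bases, Mir362 after a further 5942 bases, Mir501 after 630 bases and Mir500 after 3468 bases.

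The hairpins are shown because their names do not reveal which of the 5 genes are alike in sequence. The sequences are those of RefSeq for GRCm38.p6, which held all 5 hairpins and 9 mature forms of them, and each hairpin was identical in position and sequence to the gene counted. Capitals mark the mature forms listed by RefSeq, and the lines follow the order of transcription. The form miR-532-5p is not shown.
Mir532 hairpin, chrX:7248402-7248497, minus strand: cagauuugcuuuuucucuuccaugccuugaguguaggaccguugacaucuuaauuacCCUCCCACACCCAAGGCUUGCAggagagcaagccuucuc
Mir188 hairpin, chrX:7247989-7248056, minus strand: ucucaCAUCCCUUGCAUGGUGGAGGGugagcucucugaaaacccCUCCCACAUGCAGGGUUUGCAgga
Mir362 hairpin, chrX:7241982-7242046, minus strand: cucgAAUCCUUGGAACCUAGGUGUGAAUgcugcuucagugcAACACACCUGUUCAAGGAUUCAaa
Mir501 hairpin, chrX:7241243-7241351, minus strand: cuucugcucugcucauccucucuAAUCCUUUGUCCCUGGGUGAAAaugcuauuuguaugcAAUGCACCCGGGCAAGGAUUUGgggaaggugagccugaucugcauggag
Mir500 hairpin, chrX:7237683-7237774, minus strand: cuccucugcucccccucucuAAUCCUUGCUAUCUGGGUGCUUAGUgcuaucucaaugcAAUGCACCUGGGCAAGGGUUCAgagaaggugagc

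The mature forms are listed next by shared seed, since a seed is the part of a miRNA that mainly selects its targets. Capitals mark the seed, bases 2 to 8 from the 5′ end. miR-500-3p and miR-501-3p share AUGCACC, and miR-500-5p and miR-362-5p share AUCCUUG. Among the 1738 mature mouse forms in the table, both of these seeds were listed for genes of this cluster alone.
miR-500-3p: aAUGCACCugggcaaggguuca
miR-501-3p: aAUGCACCcgggcaaggauuug
miR-500-5p: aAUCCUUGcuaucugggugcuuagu
miR-362-5p: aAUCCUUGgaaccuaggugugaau
miR-501-5p: aAUCCUUUgucccugggugaaa
miR-362-3p: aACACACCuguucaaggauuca
miR-188-5p: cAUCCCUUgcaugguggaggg
miR-188-3p: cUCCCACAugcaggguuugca
miR-532-3p: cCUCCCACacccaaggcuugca

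miR-501-3p and miR-500-3p were identical at 18 of 22 positions and differed by C9U, A18G, U21C and G22A, written with the base of miR-501-3p first, the position from the 5′ end and then the base of miR-500-3p. miR-362-3p and miR-500-3p were identical at 17 of 22 positions. On the 5p arm, miR-362-5p and miR-501-5p were identical at 16 of the 22 positions compared from the 5′ end. The Mir501 and Mir500 hairpins had 67.3% identical columns in a global alignment, the highest of the 10 pairs, and the other 9 pairs lay between 42.7% and 57.9%. The hairpins of Mir532 and Mir188, the neighbours at the start of the cluster, both hold CUCCCACA on the 3p arm, 1 base apart in register, so that their seeds differ.

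Letter patterns were searched in the transcribed strand of the 1005 RefSeq hairpins, after the sequences had been seen. AUCCUU was found in the 3 hairpins of Mir362, Mir501 and Mir500, and in 1.99% of all hairpins. CUCCCACA was found in Mir532 and Mir188, and in 0.597% of all hairpins, as was AUGCACC, found in Mir501 and Mir500. CAAGG was found in every hairpin of the cluster except Mir188, and in 7.96% of all hairpins. Predicted folding energies per base were −0.346 kcal/mol for Mir532, −0.424 for Mir188, −0.430 for Mir501, −0.439 for Mir362 and −0.455 for Mir500, and the median of all RefSeq hairpins was −0.406 kcal/mol. Mir532 was thus the weakest fold per base of the 5. The annotated hairpins differ in length, from 65 bases for Mir362 to 109 for Mir501, and a relation of fold to level was not tested.

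The tables held 6783227 sense miRNA reads for replicate 1 and 3084602 for replicate 2, and levels are given as CPM, the sense reads of a gene per 1000000 of these. Reads that mapped to several places made up 30.3% of the table in replicate 1 and 32.1% in replicate 2, and they count for no gene. None of the 5 hairpins shares 20 bases with another annotated hairpin, whereas 1084 of the 2202 genes do, and the longest run that a cluster gene shares with any other hairpin on either strand is the 14 bases common to Mir501 and Mir500. Markers of adrenal cell types were present, with the neuroendocrine genes Mir375 and Mir7b and the endothelial Mir126a between 4423 and 92610 CPM over both libraries. Of genes that mark other organs, the liver gene Mir122 had 257 and 57.7 CPM in replicates 1 and 2, and the kidney genes Mir192 and Mir194-2 between 11.0 and 29.2 CPM. Mir194-2 shares 20 bases with another hairpin, so its count is a lower limit. A count of 3 reads corresponds to 0.442 CPM in replicate 1 and 0.973 CPM in replicate 2, and intervals and such floors cover counting error only.

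All 5 genes were detected, meaning above 2 CPM in both libraries, and Mir532 held most of the reads of the cluster. Of all annotated miRNA genes, 15.2% were detected, and of the 142 on chromosome X, 34 were. The cluster's summed level was 1887 CPM in replicate 1 and 1903 CPM in replicate 2. It made up 0.189% of sense miRNA reads in replicate 1 (Wilson 95% interval 0.185 to 0.192) and 0.190% in replicate 2 (0.185 to 0.195), a mean of 0.189% ± 0.00113 (SD, n = 2). No antisense read was assigned to any of the 5 genes in either library.

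Mir532, whose miRNAs have been studied in human melanoma among other tumours, had 8276 reads or 1220 CPM in replicate 1 and 3370 reads or 1093 CPM in replicate 2. Its mean of 1156 ± 90.2 CPM (SD, n = 2) ranked 59th of all annotated miRNA genes and 8th of those on the X chromosome. Both libraries placed it above every other gene of the cluster by a wide margin.

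Mir501 had 1875 reads or 276 CPM in replicate 1 and 911 reads or 295 CPM in replicate 2, a mean of 286 ± 13.4 CPM (SD, n = 2). Mir500, which shares a 3p seed with it, had 1346 reads or 198 CPM in replicate 1 and 555 reads or 180 CPM in replicate 2, a mean of 189 ± 13.1 CPM. Their ranges did not overlap, and Mir501 was the higher of this related pair in both libraries. The exact 95% interval of the ratio of Mir501 to Mir500 was 1.30 to 1.495 around 1.39 in replicate 1 and 1.48 to 1.83 around 1.64 in replicate 2.

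Mir188 had 1012 reads or 149 CPM in replicate 1 and 851 reads or 276 CPM in replicate 2, a mean of 213 ± 89.6 CPM (SD, n = 2). Its SD was close to that of Mir532 although its mean was several times lower, and its values lay on either side of those of Mir500. Mir362 had 289 reads or 42.6 CPM in replicate 1 and 182 reads or 59.0 CPM in replicate 2, a mean of 50.8 ± 11.6 CPM. It was the lowest of the 5 in both libraries and the only one below 100 CPM, a mean that 173 annotated genes reached.

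**Figure D1:**
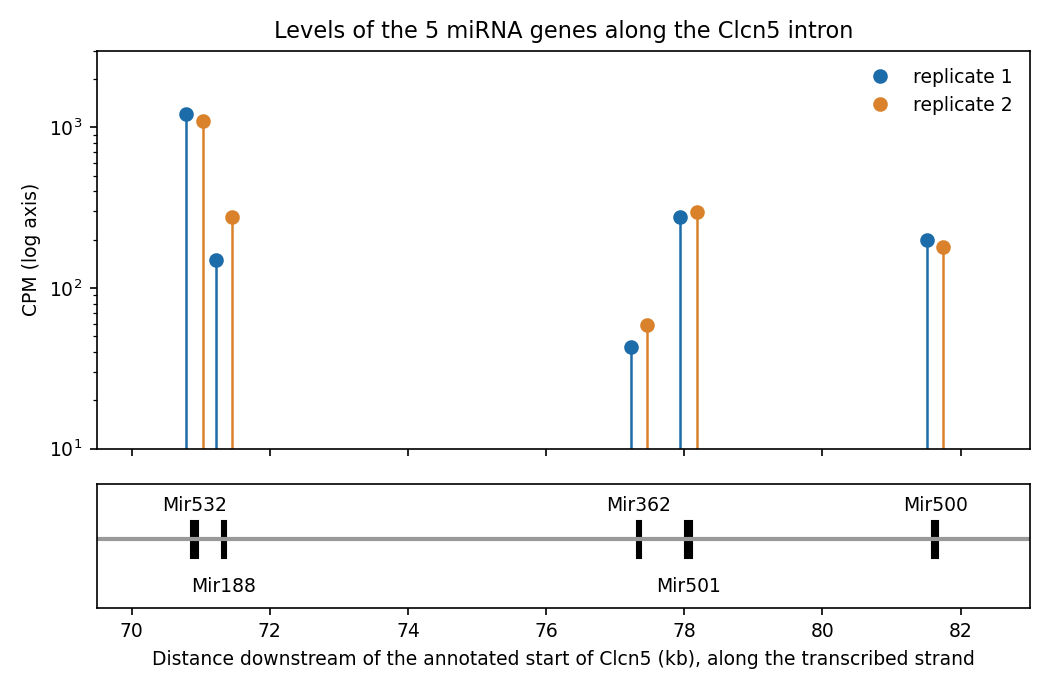
CPM of the 5 genes in replicates 1 and 2 on a log axis (upper panel), above the hairpins drawn to scale along the intron in kb downstream of the annotated start of Clcn5 (lower panel, grey line the intron); the points of the 2 libraries are set slightly apart. Mir532 stands highest at 1220 and 1093 CPM, Mir362 lowest at 42.6 and 59.0 CPM, and neighbouring hairpins differ in level.

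The genes were ordered by a rule that reads each gap against the replicate spread. It calls 2 genes ordered when both libraries rank them alike and both gaps in log2(CPM + 1) exceed the replicate difference of either gene. A read of these libraries is a whole small RNA, so levels were not divided by hairpin length, and dividing them left the same 8 of 10 pairs ordered. Mir532 was above each of the other 4, and Mir362 was below each of the other 4. Mir501 was above Mir500. The pairs not ordered were Mir188 with Mir501 and Mir188 with Mir500, so the place of Mir188 among the 3 middle genes is not settled by these libraries. With 2 libraries per gene, an exact permutation test between 2 genes taken as unpaired has a smallest two-sided p of 0.333. Genes are in fact paired by library, which the rule keeps by reading the gap in each library. No permutation test was made. The rule orders read counts, and any bias of capture shared by both libraries would pass it.

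Neighbouring hairpins differed in level. Mir532 and Mir188, the closest neighbours at 345 bases, stood 8.18-fold apart in replicate 1 (exact 95% interval 7.66 to 8.74) and 3.96-fold in replicate 2 (3.67 to 4.27). Mir501 and Mir362, 630 bases apart, stood 6.49-fold apart in replicate 1 (5.73 to 7.37) and 5.01-fold in replicate 2 (4.26 to 5.90). Mir532 and Mir500, at the ends of the cluster, kept nearly the same ratio, 6.15 in replicate 1 (5.80 to 6.52) and 6.07 in replicate 2 (5.55 to 6.65). Between the highest and the lowest gene, Mir532 and Mir362, the ratio was 28.6 in replicate 1 (25.5 to 32.3) and 18.5 in replicate 2 (15.9 to 21.6), or 22.8 for the means.

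In percentage points of the cluster, the shares of Mir188 and Mir532 differed most between the replicates, in opposite directions. Mir188 held 7.91% of the cluster's reads in replicate 1 (exact 95% interval 7.45 to 8.39) and 14.5% in replicate 2 (13.6 to 15.4). Mir532 held 64.7% in replicate 1 (63.8 to 65.5) and 57.4% in replicate 2 (56.1 to 58.7). These shares do not depend on the scaling of the libraries, and for both genes the intervals of the 2 replicates do not overlap. The shares of a library add up to the whole, so a higher share of Mir188 alone would lower the others. In percentage points that drop would fall mostly on Mir532, which holds the largest share, so the opposite directions are not independent results.

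The shares of the other 3 genes differed by fewer percentage points. Mir501 held 14.7% in replicate 1 (14.0 to 15.3) and 15.5% in replicate 2 (14.6 to 16.5), and Mir500 held 10.5% (9.99 to 11.1) and 9.46% (8.72 to 10.2), with overlapping intervals for each gene. Mir362 held 2.26% in replicate 1 (2.01 to 2.53) and 3.10% in replicate 2 (2.67 to 3.58), which do not overlap. Over both replicates, Mir532 averaged 61.0% ± 5.12 of the cluster's reads (SD, n = 2) and Mir188 11.2% ± 4.66.

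**Figure D2:**
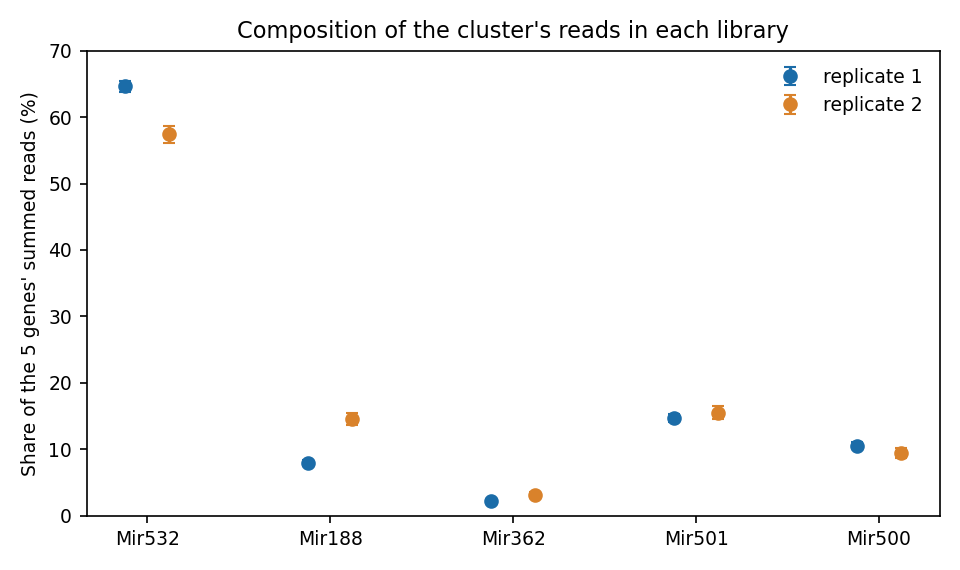
Share of the cluster's summed reads held by each gene, in percent, in replicates 1 and 2; bars are exact 95% intervals for counting error and the axis starts at 0. Mir188 lies at 7.91% in replicate 1 and 14.5% in replicate 2, Mir532 at 64.7% and 57.4%, and the other genes lie closer together.

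The summed cluster hardly differed between the replicates on the CPM scale, while its members went separate ways. Differences are log2(CPM + 1) of replicate 2 minus replicate 1, and a gene was called where its absolute difference reached 1 and Fisher's exact test on its reads (two-sided) gave a p under 0.05 after Benjamini-Hochberg adjustment. Of the 280 genes whose mean reached 10 CPM, 10.7% were called, and of the 5 cluster genes, all among the 280, 0 were. Without a limit on size, 3 of the 5 had an adjusted p under 0.05, and the same number an unadjusted p under 0.05, beside 69.3% of the 280 genes at the adjusted limit. The test compares the reads of 2 libraries, not animals, and takes reads as independent.

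Mir188 had the largest difference of the 5, 0.88, a 1.85-fold higher CPM in replicate 2 (exact 95% interval 1.69 to 2.03) with an adjusted p of 5.4e-38 in Fisher's exact test. Of the 280 genes, 85.7% had a smaller absolute difference. At a limit of 1.5-fold in place of 2-fold Mir188 was called and the other 4 were not, where 24.3% of the 280 genes were called. In whole tissue, fewer cells of a type and less RNA per cell cannot be told apart.

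Some cell type markers also differed between these 2 libraries. Mir375 had 58717 CPM in replicate 1 and 82443 CPM in replicate 2, and the endothelial Mir126a had 92610 and 52519 CPM. Mir7b had 4535 and 4423 CPM, and the smooth muscle genes Mir143 and Mir145a had 28851 and 25009 CPM and 642 and 621 CPM. The liver gene Mir122, at 257 and 57.7 CPM, was lower in replicate 2, while the kidney gene Mir192 had 29.2 and 28.5 CPM and Mir194-2 16.1 and 11.0 CPM. Of the striated muscle genes, Mir206 had 3.69 and 3.57 CPM, and Mir1a-1 and Mir133a-1, which share 20 bases with other hairpins, had 0 reads in both libraries. The part of these markers in the difference of Mir188 was not tested.

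Mir362 differed by 0.46, at 1.38-fold in replicate 2 (exact 95% interval 1.14 to 1.67) and an adjusted p of 0.0014 in Fisher's exact test. Mir532 differed by −0.16, at 0.895-fold (0.860 to 0.932) and an adjusted p of 1.2e-07 in the same exact test, a small difference that its many reads resolve. Mir500 differed by −0.14, at 0.907-fold (0.820 to 1.002) and an adjusted p of 0.075 in Fisher's exact test, and Mir501 by 0.095, at 1.07-fold (0.986 to 1.16) and an adjusted p of 0.14 in that exact test. The sign for Mir501 depended on the scaling, at −0.0063 with TMM factors and −0.041 with DESeq2 size factors. With a total that leaves out the 10 most abundant genes, Mir501 was at 0.18 (Fisher's exact test, adjusted p = 0.0034). The values for Mir188, Mir362, Mir500 and Mir532 kept their sign but not their size. Mir500 was at −0.24 with TMM factors (Fisher's exact test, adjusted p = 0.0015), −0.28 with DESeq2 size factors (exact test, adjusted p = 0.00023) and −0.055 with a total that leaves out the 10 most abundant genes (exact test, adjusted p = 0.52). Under these 3 scalings Mir532 ranged from −0.30 to −0.073, Mir188 from 0.75 to 0.97 and Mir362 from 0.33 to 0.55. Under each, 4 of the 5 genes in place of 3 had an adjusted p under 0.05. The added gene was Mir500 with TMM factors and DESeq2 size factors, but Mir501 with the total that leaves out the 10 most abundant genes.

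The median difference of the 5 genes was 0.095, and that of the 280 genes 0.012. The median absolute difference was 0.16 for the 5 genes and 0.28 for the 280, and 3 of the 5 lay below 0.28. The summed cluster differed by 0.012 (exact 95% interval −0.033 to 0.057), and the sum of the 4 genes without Mir188 by −0.095, with 1738 CPM in replicate 1 and 1627 CPM in replicate 2. TMM factors shifted the median of all tested genes by −0.10 and DESeq2 size factors by −0.14, and the summed cluster moved with them to −0.090 and −0.12. A change of scaling shifts every gene by nearly the same amount, so this move is not a trait of the cluster.

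**Figure D3:**
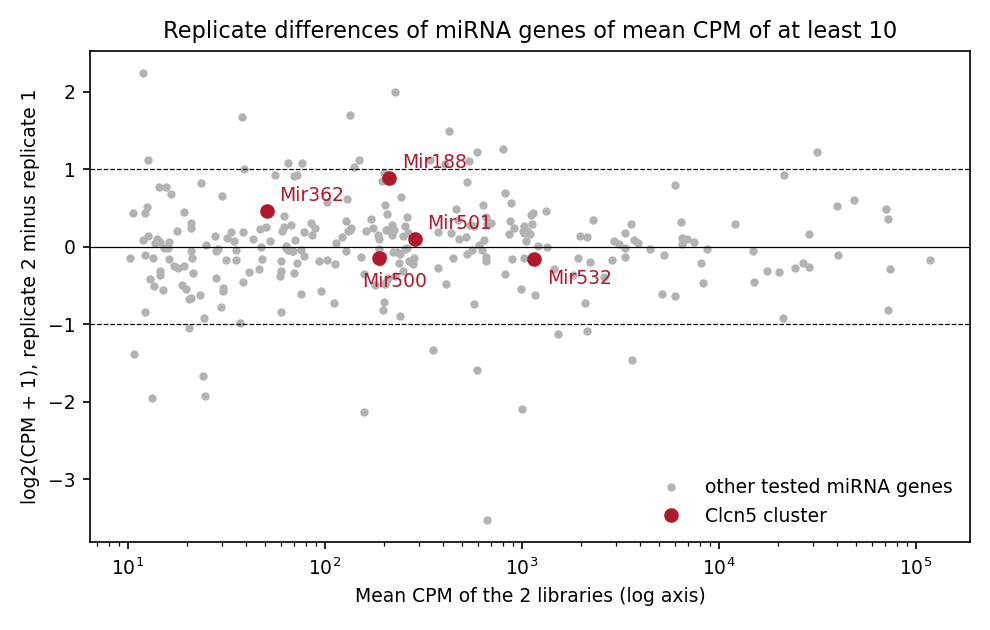
Difference in log2(CPM + 1), replicate 2 minus replicate 1, against mean CPM on a log axis, for the 280 genes whose mean reached 10 CPM; the 5 cluster genes are named and dashed lines mark a difference of 1 in either direction. Mir188 at 0.88 lies just inside the upper line, Mir362 at 0.46 follows, and the other 3 lie near 0.

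The shared seeds allow the genes to be grouped by what they could target, with the limit that a count belongs to a hairpin and not to an arm. Mir500 and Mir501, whose 3p forms carry AUGCACC, summed to 475 CPM in both libraries, a mean of 475 ± 0.294 CPM (SD, n = 2) and 25.2% and 25.0% of the cluster in replicates 1 and 2. Mir500 and Mir362, whose 5p forms carry AUCCUUG, summed to 241 CPM in replicate 1 and 239 CPM in replicate 2, a mean of 240 ± 1.49 CPM. These small SDs rest on 2 values, do not measure counting error and hold for this scaling only. TMM factors shifted the median difference of all tested genes by −0.10 and DESeq2 size factors by −0.14. Each sum counts both arms of its hairpins, so it is an upper limit for the reads with that seed among those assigned to these genes.

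Seed mates outside the cluster were few for the 9 mature forms listed. The form miR-532-5p, from the gene with the most reads, was not among them, and its seed was not searched. miR-362-3p shares its seed ACACACC with miR-329-3p of Mir329, a gene of the imprinted Dlk1-Dio3 region on chromosome 12. Mir362 had 42.6 and 59.0 CPM in replicates 1 and 2, and Mir329 had 182 and 195 CPM. Mir329 was thus higher in both libraries, by hairpin counts. miR-188-5p shares AUCCCUU with miR-7061-3p of Mir7061 on chromosome 7, which had 0 reads in replicate 1 and 1 read in replicate 2.

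Compared with 8 other miRNA clusters, the summed level of the Clcn5 cluster was above 4 and below 4 beyond the replicate spread. On the X chromosome, the cluster at 1895 ± 11.3 CPM (SD, n = 2) was above the pair of Mir221 and Mir222, at 653 ± 198 CPM, and above the genes from Mir106a to Mir363, a paralog of the mir-17 to mir-92 cluster, at 90.3 ± 0.702 CPM. It was below Mirlet7f-2 and Mir98, of the let-7 family, at 9072 ± 1429 CPM, and below the cluster from Mir322 to Mir450b at 23285 ± 3718 CPM. Genes that share 20 bases with another hairpin, whose counts are lower limits, made up 2 of 6 in the Mir106a group, 2 of 7 in the Mir322 group and 1 of 2 in the let-7 pair.

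Among clusters in introns of protein-coding hosts on autosomes, the closest was Mir106b, Mir93 and Mir25 in Mcm7. The Clcn5 cluster had 1887 and 1903 CPM in replicates 1 and 2, against 1421 and 1634 CPM for that cluster. It was thus 1.33-fold and 1.16-fold higher, while the Mir106b group itself differed by 0.20 in log2(CPM + 1) between the replicates. This order passed the rule by a narrow margin. The Clcn5 cluster was also above Mir15b and Mir16-2, at 481 ± 20.0 CPM (SD, n = 2). It was below Mir191 and Mir425, at 8077 ± 220 CPM, and below Mir23b, Mir27b, Mir3074-1 and Mir24-1, at 42975 ± 9923 CPM. When the column that joins both strands was used, Mir191 and Mir425 fell below the Clcn5 cluster, at 692 and 670 CPM against 2166 and 2088 CPM for the Clcn5 cluster. The 5 Clcn5 genes have the same reads in that column but higher CPM, so its total is smaller than the sense total. Mir191 and Mir425 therefore have fewer reads in it than in the sense column, and the changed order comes from that loss. Why the column leaves out reads was not tested. Mir3074-1 lies on the strand opposite to the rest of the Mir23b group. Such lower limits concern 1 of 2 genes in the Mir15b pair and 4 of 4 in the Mir23b group.

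**Figure D4:**
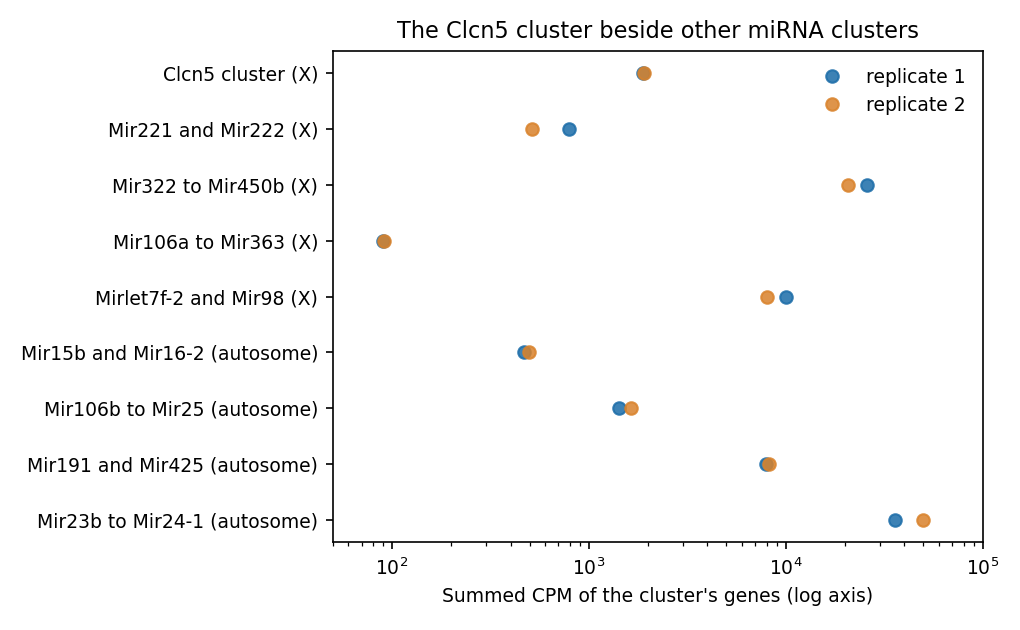
Summed CPM of the Clcn5 cluster and of 8 other miRNA clusters in replicates 1 and 2, on a log axis, with the chromosome class in brackets. The Clcn5 cluster lies at 1887 and 1903 CPM, next above the Mir106b to Mir25 cluster at 1421 and 1634 CPM.

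Among the leading genes of these clusters Mir532 took a middle position. Mir532 stood at 1156 ± 90.2 CPM (SD, n = 2), and Mir93, which led the Mir106b group, at 1015 ± 98.6 CPM. In replicate 2 they were nearly level, with 1093 CPM for Mir532 and 1085 CPM for Mir93. Mir221 stood at 574 ± 205 CPM, Mir15b at 256 ± 3.83 CPM and Mir92-2 at 34.7 ± 1.34 CPM. Mir98 at 5167 ± 1510 CPM, Mir191 at 7470 ± 215 CPM, Mir322 at 20123 ± 3216 CPM and Mir23b at 40041 ± 10180 CPM stood higher.

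For each cluster gene, the gene outside the cluster that lay nearest in log2(CPM + 1) over the 2 libraries was identified among genes without shared 20-base runs. For Mir532 it was Mir615, a gene of the Hoxc region, with 1081 CPM in replicate 1 and 975 CPM in replicate 2 (distance 0.24). For Mir188 it was Mir182, of the mir-183 cluster, with 136 CPM in replicate 1 and 264 CPM in replicate 2 (distance 0.15). For Mir501 it was Mir142, a leukocyte miRNA gene, at 249 and 282 CPM (distance 0.16). For Mir500 it was Mir144, an erythroid miRNA gene, at 191 and 187 CPM (distance 0.08), and for Mir362 it was Mir760 at 46.0 and 54.8 CPM (distance 0.15). Each of these likenesses rests on 2 values and is a description of level only.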

How the data were processed

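Small RNA of 2 adrenal gland libraries was sequenced, and the authors deposited for each library raw read counts per miRNA gene in 3 columns, for both strands, the sense and the antisense strand, after 4 mapping lines that were left out of totals. Per the file headers deposited beside each table, the assembly was mm10 and the annotation GENCODE M21. The aligner is "not given in the sources used here", nor is any trimming, and the columns carry no names, so the strand was read from the layout and the totals. Multimapping reads were assigned to no gene, arms were not counted apart, and a variant of the CAST strain inside a mature sequence could lower a count.

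All 2202 identifiers matched GENCODE M21, which gave names, positions and host transcripts. CPM were computed from sense counts and totals of 6783227 and 3084602 reads. Fisher's exact test on all genes whose mean reached 10 CPM and exact, Clopper-Pearson or Wilson 95% intervals used SciPy 1.17.1. TMM factors came from edgeR 4.0.16 and size factors from DESeq2 1.42.0, with no test from either, since 1 group gives no contrast. Both were computed without a filter on level, so genes with few reads entered the DESeq2 factors, which were 1.41 and 0.707 for replicates 1 and 2. Hairpins were folded with ViennaRNA 2.7.2 and aligned with Biopython 1.88. Of the steps, only the replicate call was tested on simulated data, with planted differences and counting error but no other spread between libraries. The cluster genes, the lists of other clusters and the rule for named genes (the 5 genes, other miRNA genes in Clcn5, the nearest gene to each and the highest of each list) were chosen with earlier results of these data known. Alternatives covered the strand column, scaling, pseudocount, filter, fold limit, hairpin length and leaving out a replicate.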

Additional observations from a re-analysis of the deposited data

How the results depend on the processing

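The same 8 of 10 pairs of the cluster's genes were ordered for the other strand column, both pseudocounts, both scalings and hairpin length. The strand column and the scalings change all 5 genes of a library by the same factor, which leaves the gaps between them nearly unchanged. They act on the rule mainly through the replicate differences, so they are a weak check of the order. The cluster held 0.213% of reads with the column for both strands. By sense reads it held 0.470% of a total without the 10 most abundant genes and 0.0937% of all reads. Scaled to 1000000 reads of any kind, Mir532 stood at 573, Mir188 at 104, Mir362 at 25.0, Mir501 at 141 and Mir500 at 93.8. With the column for both strands, Mir532 stood at 1299.8 CPM, Mir501 at 321 CPM and Mir500 at 213 CPM. The reads of the 5 genes are the same in that column, so these higher values and the share of 0.213% come from its smaller total. The difference of the summed cluster was −0.052 with that column, −0.090 with TMM factors, −0.12 with DESeq2 size factors and 0.098 without the 10 most abundant genes. The sign for Mir501 turned to −0.0063 and −0.041 under TMM factors and DESeq2 size factors. Without the 10 most abundant genes Mir501 was at 0.18 (Fisher's exact test, adjusted p = 0.0034). At any size, 4 cluster genes in place of 3 had an adjusted p under 0.05 with the column for both strands, TMM, DESeq2 and the total without the 10 most abundant genes, a count added after seeing the data. The added gene was Mir501 for the last of these alternatives and Mir500 for the others. At a limit of 1.5-fold, 1 cluster gene and 68 genes in all were called, in place of 0 and 30. Without a filter 50 genes were called, and at a mean CPM of at least 100, with fewer genes tested, 19 were. Per base of hairpin, Mir532 was 15.4-fold above Mir362. Leaving out each replicate gave a share of 0.189% to 0.190% and a ratio of Mir532 to Mir362 of 18.5 to 28.6. It gave 1093 to 1220 CPM for Mir532, 149 to 276 for Mir188, 42.6 to 59.0 for Mir362, 276 to 295 for Mir501 and 180 to 198 for Mir500. With 2 libraries, leaving out 1 returns the values of the other, so these ranges repeat the values of each library and are no separate check. The comparison with other clusters, whose alternatives were added after seeing the data, held for 8 of 8 under TMM, DESeq2 and all reads, and for 7 with the column for both strands. It was not tried with the total without the 10 most abundant genes, and the order against the Mir106b group has a narrow margin. No paired comparison of conditions was possible because there is 1 group, while gaps and ratios between genes were taken within each library. Depth limits Mir362 most, at 289 and 182 reads.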
